A study of Mus musculus with 4 samples.

Results

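SCL (product of Tal1), a transcription factor required for blood specification, was mapped at 10 genes of the bone morphogenetic protein (BMP) and transforming growth factor-beta (TGF-beta) pathways: Bmp4, Bmpr1a, Acvrl1, Tgfbr2, Eng, Bambi, Smad1, Smad5, Smad6 and Smad7. A peak of SCL ChIP-seq, the sequencing of DNA fragments precipitated with the protein, was assigned to one of these genes when, of all protein-coding transcription start sites (TSSs) of the mm9 mouse genome, a TSS of that gene lay nearest to the peak's summit. In this way 54 of the 12885 peaks were assigned to the 10 genes. The study gives a smaller number of bound loci than there are peaks in the deposited list, by a filter that is not known here, and every count, rank and share below refers to the full list. The cells were FLK1+ mesoderm at day 3.5 of embryoid body culture, in which embryonic stem cells aggregate and differentiate. The ES cells were wild-type J1, a single line, with the strain given as C57Bl/6 X Sv129, and carried no transgene or deletion according to the labels and methods. FLK1+ cells were collected on magnetic columns. Of the 4 libraries, 2 were precipitated with a rabbit anti-serum against SCL and 2 were input chromatin of the same stage. The list is a single call on the merged libraries, and so no value below has a replicate error. Intervals given with the fold of a peak cover the counting of ChIP fragments only. Those of a median fold or of a share give the spread over peaks taken as independent, although many of the peaks are neighbours at 1 gene. The list holds no expression values, and so the labelled cell type could not be checked against its markers.

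BMP and TGF-beta ligands bind pairs of type I and type II receptor kinases at the cell surface, and the type I receptor phosphorylates receptor-activated Smad proteins, which enter the nucleus with Smad4 and act on target genes. Inhibitory Smads, pseudoreceptors and secreted antagonists limit the signal. In the embryo, BMP4 induces ventral mesoderm and is needed for blood formation, whereas Acvrl1 and Eng act in developing vessels. SCL is a basic helix-loop-helix protein that pairs with E proteins on the E-box CANNTG, and in blood cells it joins GATA factors and LMO2 in a complex known to occupy a composite of CTG, which is part of an E-box, and a nearby GATA.

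The composite, searched as CTG followed after 7 to 9 bp by GATA on either strand within 50 bp of the summit, was found at 16 of the 54 peaks, a share near that of the whole list (29.6% against 32.9%), and these lay at 8 of the 10 genes. The windows below show it at a selection of these peaks, strong and weak, near and distal, with the letters CTG and GATA of each composite in capitals. Each window is 101 bp of mm9 centred on the summit and is read 5′ to 3′ on the strand named.
Smad6 upstream peak, chr9:63893087-63893187, minus strand: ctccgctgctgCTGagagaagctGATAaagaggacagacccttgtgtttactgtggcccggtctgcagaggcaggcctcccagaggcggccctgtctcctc
Smad6 distal downstream peak, chr9:63743121-63743221, plus strand: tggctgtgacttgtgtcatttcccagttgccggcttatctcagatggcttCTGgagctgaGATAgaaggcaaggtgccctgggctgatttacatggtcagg
Bmpr1a upstream peak, chr14:35321488-35321588, minus strand: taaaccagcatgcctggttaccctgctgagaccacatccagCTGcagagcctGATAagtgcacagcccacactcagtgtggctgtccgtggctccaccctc
Bmp4 distal peak, chr14:47193270-47193370, minus strand: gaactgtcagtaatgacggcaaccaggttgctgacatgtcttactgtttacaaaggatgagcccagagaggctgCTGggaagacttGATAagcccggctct
Eng intronic peak, chr2:32517584-32517684, minus strand: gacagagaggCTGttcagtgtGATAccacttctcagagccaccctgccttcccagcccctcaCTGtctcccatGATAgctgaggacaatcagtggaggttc
Smad5 distal peak, chr13:56877842-56877942, minus strand: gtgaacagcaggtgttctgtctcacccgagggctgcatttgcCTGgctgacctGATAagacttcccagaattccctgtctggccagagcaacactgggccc
Tgfbr2 distal peak, chr9:116245345-116245445, plus strand: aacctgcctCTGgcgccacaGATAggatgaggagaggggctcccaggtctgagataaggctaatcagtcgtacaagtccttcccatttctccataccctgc

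No composite was found at Smad1 or Acvrl1. The windows of their strongest peaks, and of a second peak at Smad1 and at Smad6, are shown for comparison with the GATA motif (AGATAA or TGATAA, or the same with a final G, searched on both strands) in capitals.
Smad1 strongest intronic peak, chr8:81904433-81904533, minus strand: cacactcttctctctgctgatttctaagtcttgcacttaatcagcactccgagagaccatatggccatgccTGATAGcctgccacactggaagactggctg
Smad1 second intronic peak, chr8:81899754-81899854, minus strand: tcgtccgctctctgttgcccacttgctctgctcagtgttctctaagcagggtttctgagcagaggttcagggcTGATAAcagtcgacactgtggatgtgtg
Acvrl1 downstream peak, chr15:100978500-100978600, plus strand: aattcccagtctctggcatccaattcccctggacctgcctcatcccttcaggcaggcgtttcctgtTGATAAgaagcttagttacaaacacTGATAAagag
Smad6 second upstream peak, chr9:63898473-63898573, minus strand: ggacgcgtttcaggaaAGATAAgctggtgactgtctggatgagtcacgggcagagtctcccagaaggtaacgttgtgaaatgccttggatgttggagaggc

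The strongest Tgfbr2 peak held neither of these motifs, and its E-boxes on the printed strand are in capitals.
Tgfbr2 strongest distal peak, chr9:116320327-116320427, plus strand: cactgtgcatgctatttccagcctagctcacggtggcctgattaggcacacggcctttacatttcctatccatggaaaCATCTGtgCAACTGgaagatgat

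All 10 genes had at least 1 SCL peak, where 29% of 22238 protein-coding genes did (6458 genes). The 10 genes were chosen with earlier results of these data known. Thus neither their peak counts nor the rates below are a test of preferred binding. The number of peaks per gene ranged from 1 to 12. The inhibitory Smads held the most, with 12 at Smad7 and 10 at Smad6, followed by 8 at the TGF-beta receptor gene Tgfbr2, 7 at Smad1 and 5 at Bambi. These 5 genes had 5 or more peaks, as did 2.12% of all protein-coding genes. This order depended on the assignment of distal peaks. When non-coding genes also competed for peaks, Smad7 had 0 and Smad6 5, below Tgfbr2 with 8 and Smad1 with 7, and within the gene or 10 kb of it Smad7 had 0 and Smad6 2, below Smad1 with 6. In the whole genome 18 genes had more peaks than Smad7 and 35 had more than Smad6. Acvrl1 had 4 peaks, Bmp4 and Smad5 had 3 each, and Bmpr1a and Eng had 1 each.

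The genes differ in how much sequence lies closest to their TSSs, and a gene in a gene-poor region can collect more peaks. The 10 genes together had 2026 kb of such sequence and 2.67 peaks per 100 kb, against 0.485 over the genome. Acvrl1 had the least sequence, 33.7 kb, and the highest rate, 11.9 peaks per 100 kb (exact Poisson 95% interval 3.24 to 30.4). Smad6 followed with 5.49 (2.63 to 10.1), Smad1 with 4.06 (1.63 to 8.37) and Smad7 with 3.50 (1.81 to 6.11). The rates of Tgfbr2, 1.81 (0.780 to 3.56), and Bambi, 1.37 (0.444 to 3.19), were lower, over 442.8 kb and 366.0 kb. The single peaks of Eng (2.32, 0.0586 to 12.9) and Bmpr1a (1.05, 0.0266 to 5.86) and the 3 peaks of Smad5 (1.90, 0.392 to 5.55) and Bmp4 (1.58, 0.326 to 4.62) gave wide intervals. The intervals of Eng, Bmpr1a, Smad5, Bmp4 and Bambi included the rate over the genome, 0.485. The intervals of all 10 genes overlapped one another except that of Acvrl1 with that of Bambi. The plot of peak number against assigned sequence shows the genes beside the other pathway genes.

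**Figure D1:**
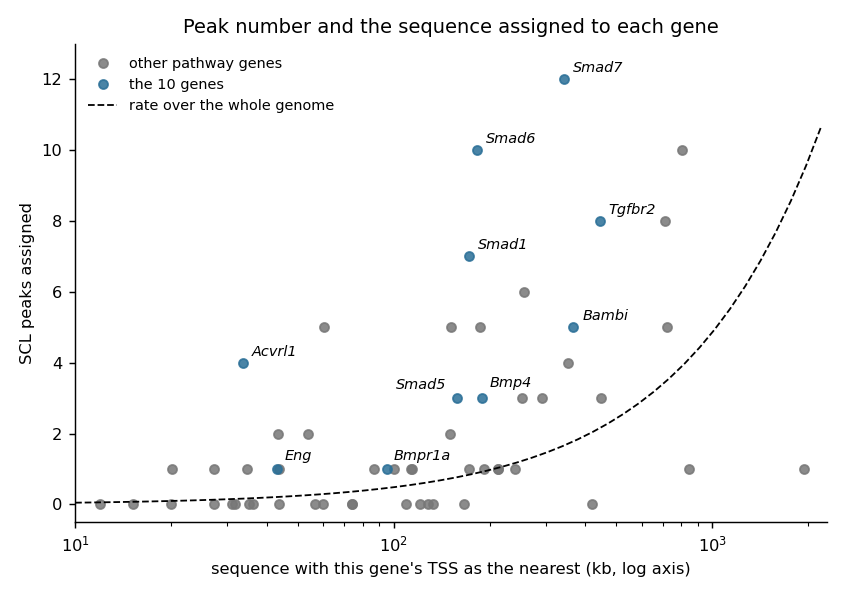
SCL peaks assigned to each gene (vertical axis) against the sequence for which its TSS is the nearest protein-coding TSS (kb, log axis), with the 10 genes in blue, the 48 other pathway genes in grey and a dashed line for the rate over the whole genome, 0.485 peaks per 100 kb. All 10 genes lie above the line, with Smad7 (12 peaks) and Smad6 (10 peaks) highest and Acvrl1 (4 peaks in 33.7 kb) farthest to the left of the 10. A gene with little sequence, such as Eng with 43.2 kb, lies above it with any peak at all. The Poisson intervals of Eng, Bmpr1a, Smad5, Bmp4 and Bambi include the rate of the line.

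Enrichment was read as the deposited fold at the summit, in which 1 is added both to the ChIP fragments and to the local background, so that it is lower than their plain ratio, most of all where the background is low. The median fold of the 54 peaks was 14.3 (95% interval of the median 10.2 to 19.3) with a range of 4.70 to 195.9, against 11.1 (11.05 to 11.35) over all 12885 peaks. Of the 54 peaks, 10 (18.5%) were in the top 10% of the list by fold, at 40.9 or more, and 19 (35.2%) had a fold under 10, whereas 43.4% of all peaks did. Behind these folds stood 29 to 1119 fragments at the summit, with a median of 70 against 53 for the whole list. The median local background was 4.41 fragments, with a range of 2.43 to 18.9, against 3.67 over all peaks. Without the 22 peaks of Smad6 and Smad7, the median of the other 32 was also 14.3.

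Every gene other than Eng and Smad5 had a peak with a fold of 32.3 or more. The strongest peak of Smad6 had a fold of 195.9 (184.6 to 207.8) from 1119 fragments and had rank 21 in the whole list. Next came Smad1 at 94.7 (87.0 to 103.0), Bmpr1a at 91.8 (83.0 to 101.3) and Acvrl1 at 90.1 (81.4 to 99.4), whose intervals overlapped. Smad7 at 70.7 (63.6 to 78.3), Bmp4 at 58.1 (52.5 to 64.1) and Bambi at 58.1 (51.4 to 65.4) formed a second group in which each interval overlapped the next. Tgfbr2 at 32.3 (26.6 to 38.9) was separate from the genes above and below it. The lowest were Eng at 16.1 (13.3 to 19.2) and Smad5 at 11.6 (8.72 to 15.1), whose intervals overlapped. Thus the receptor gene with 8 peaks, Tgfbr2, had a weaker strongest peak than Bmpr1a, which had 1. The order by strongest peak also depended on the assignment of distal peaks. When non-coding genes competed for peaks, Smad6 lost its strongest peak and kept a highest fold of 35.8, below Smad1 at 94.7. Smad7 and Bmp4 then had 0 peaks. Within the gene or 10 kb of it, the highest fold at Smad6 was 7.84.

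**Figure D2:**
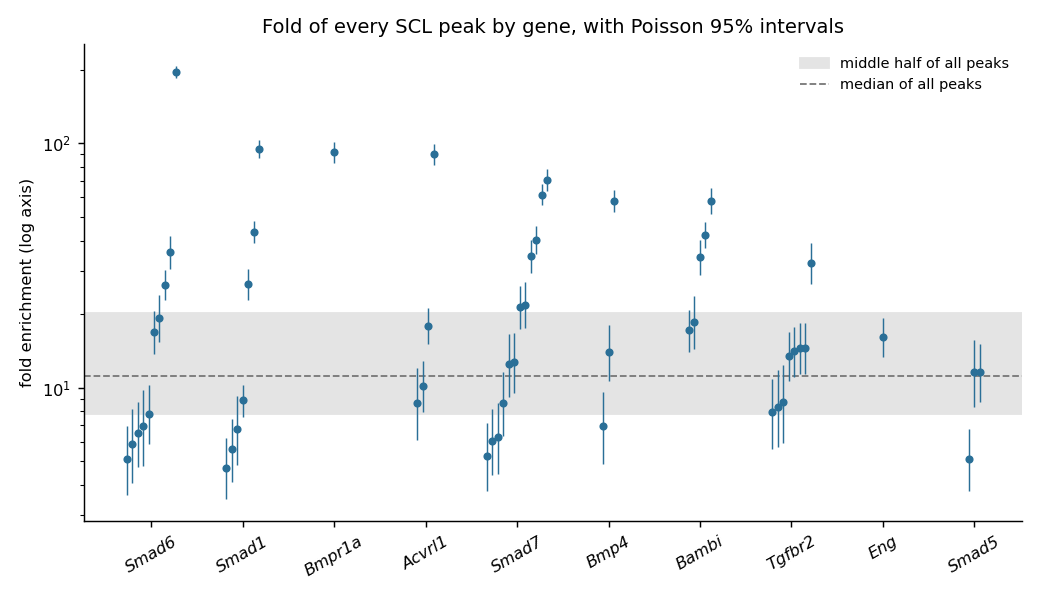
Fold enrichment of every SCL peak (log axis) by gene, in the order of the strongest peak, with exact Poisson 95% intervals for the ChIP fragments, a grey band for the middle 50% of all peaks and a dashed line at their median of 11.1. The peaks of Smad6 run from 5.10 to 195.9, whereas the 5 peaks of Bambi all lie at 17.1 or above.

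Most of the peaks were far from promoters. Of the 54 peaks, 3 (5.56%, Wilson 95% interval 1.91 to 15.1) lay within 1 kb of any TSS of their gene, against 7.59% of all peaks, and each of these was an internal or alternative TSS. The summit closest to the first TSS of its gene was 1024 bp from that of Smad5. The median distance to the nearest TSS was 53.0 kb, against 24.1 kb over all peaks, and 18 peaks (33.3%) lay beyond 100 kb, against 18.5%. These 18 were at Tgfbr2, Smad7, Bmp4, Bambi and Smad6. Such distances are limited by the sequence assigned to a gene. It was 182.1 kb at Smad6 and up to 442.8 kb at Tgfbr2, against a median of 45.7 kb over all genes. The part of this in the contrast was not tested. There were 34 intergenic peaks, 14 in the gene to which they were assigned and 6 in the body of another gene only. Of the summits 28 were upstream and 26 downstream of the nearest TSS. Another summit lay within 12.5 kb of 33 peaks (61.1%, 47.8 to 73.0), against 34.5% of all peaks and 43.6% of those at the other pathway genes. The interval is too narrow to the extent that neighbouring summits count each other. The genes were chosen with earlier results known, and so the share is no test of clustering.

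**Figure D3:**
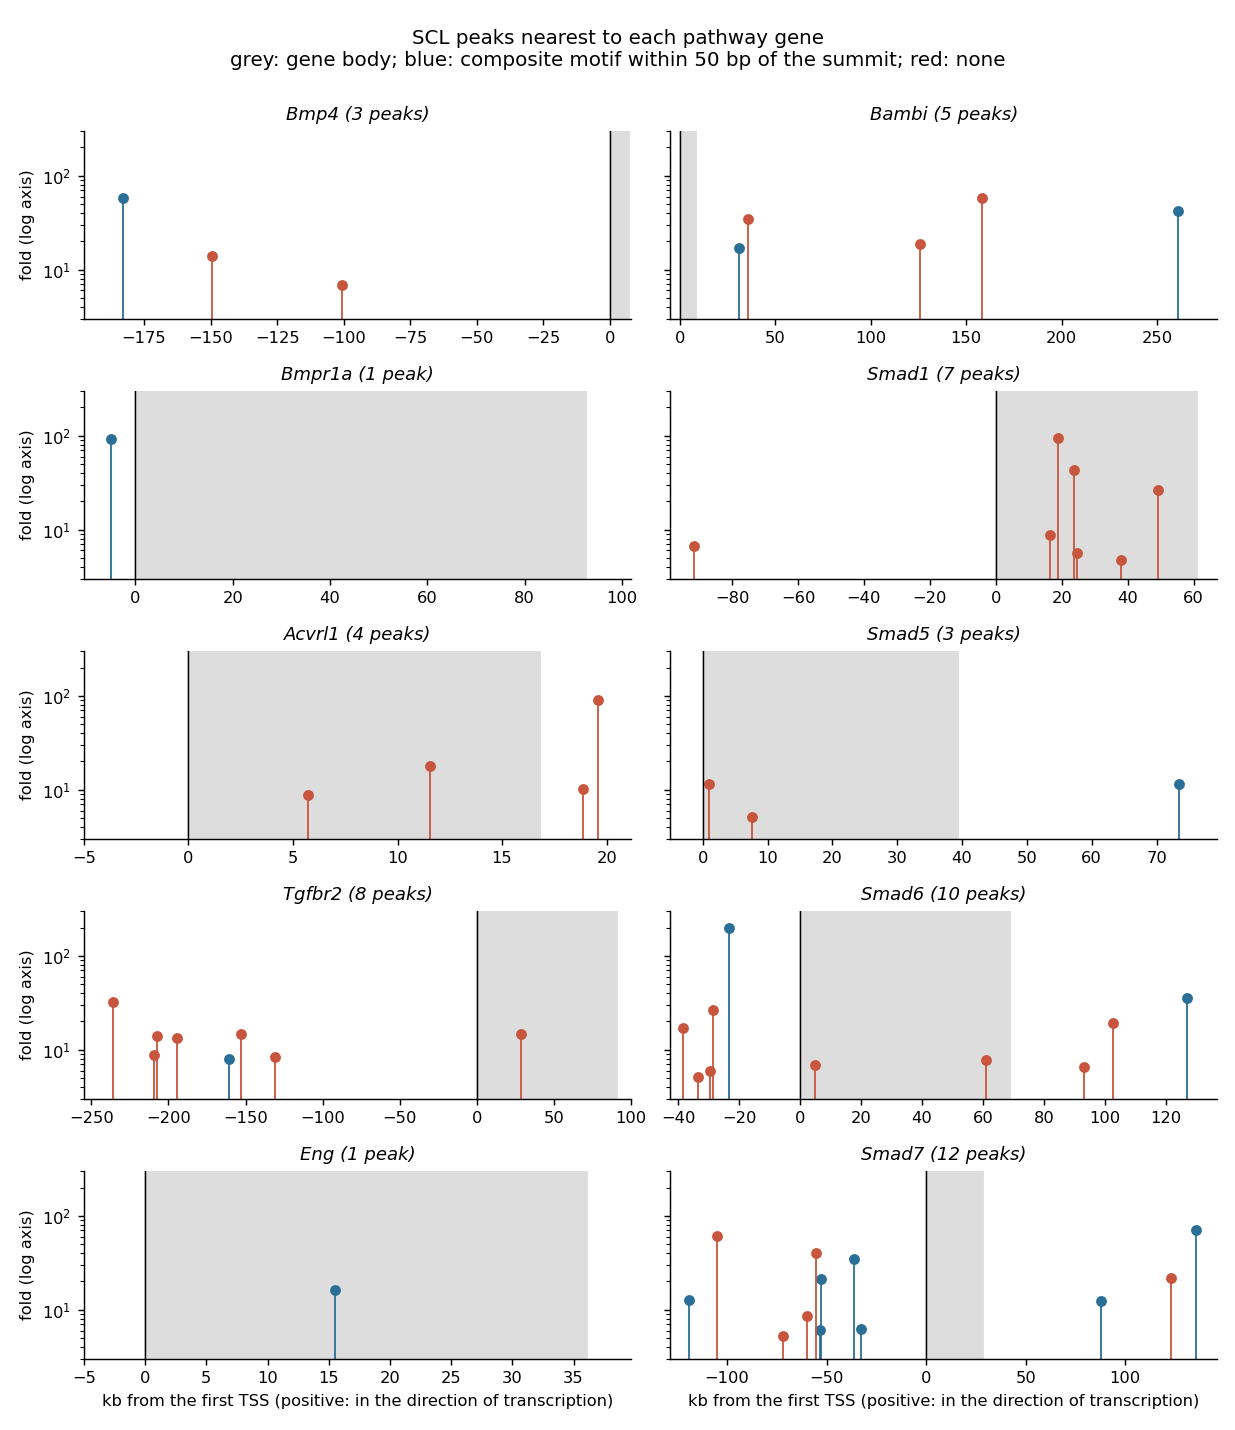
Position of each SCL peak in kb from the first TSS of its gene (horizontal axes, positive in the direction of transcription) and its fold (vertical axes, log), with the gene body in grey and peaks in blue where the composite motif lay within 50 bp of the summit and in red where it did not. The peaks of Bmp4 and Bambi and most of those of Tgfbr2 lie far from the gene on 1 side, and those of Smad6 and Smad7 lie on both sides.

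Among the ligands, Bmp4 (chromosome 14, 47003195 to 47010344, minus strand) had 3 intergenic peaks, all more than 100 kb upstream. The nearest, at 100.7 kb, had a fold of 6.93 (4.89 to 9.57), and the second, at 149.3 kb, had a fold of 14.0 (10.7 to 18.1). The third and strongest (47192928 to 47193539) was 183.0 kb upstream with 392 fragments. The nearest TSS of another protein-coding gene, Cdkn3, was 186.9 kb from that summit, and so the assignment to Bmp4 rested on a difference of a few kb. The nearest and the second summit were likewise only a few kb closer to Bmp4 than to Gm15217, at 110.2 and 158.9 kb. Of the 3 peaks, the strongest held the composite, with a spacing of 9 bp and in the window printed above, and all 3 held a GATA motif.

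Bmpr1a encodes a type I BMP receptor (chromosome 14, 35223920 to 35316527, minus strand). Its only peak (35321320 to 35321748) was 5.01 kb upstream, with 394 fragments over a background of 3.30. The window held the composite with a spacing of 8 bp and its centre 2 bp from the summit. The CTG of this composite was itself the end of an E-box, CAGCTG. The window also held TGTGGT, a core that Runx proteins bind.

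Acvrl1 encodes ALK1, the type I receptor of endothelial cells (chromosome 15, 100958953 to 100975767, plus strand). Its 4 peaks lay within 13.9 kb of each other, from an intron to past the 3′ end. In order along the gene their folds were 8.69 (6.12 to 11.99), 17.9 (15.1 to 21.1), 10.2 (7.95 to 12.9) and 90.1. The strongest (100978303 to 100978951) was 19.6 kb downstream of the first TSS and outside the gene, 26.0 kb from the TSS of Acvr1b, a type I activin receptor gene on the other side. Its summit was 712 bp from that of the peak before it. It held 2 GATA motifs and no E-box within 50 bp of the summit, and the first 2 peaks held neither motif.

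Tgfbr2 encodes the type II receptor for TGF-beta (chromosome 9, 115993415 to 116084383, minus strand). A single peak was intronic, 28.8 kb into the gene, with a fold of 14.6 (11.3 to 18.4). The other 7 were intergenic and stretched from 130.7 to 236.0 kb upstream, with folds of 7.93 to 32.3. The strongest (116320230 to 116320629) was also the farthest. It rested on 110 fragments, fewer than the strongest peak of any other gene but Smad5, over the lowest background of the list, 2.43. Its window held the E-boxes CATCTG and CAACTG and no GATA motif. The composite occurred at 1 of the 8 peaks (116245248 to 116245524, fold 7.93, 5.62 to 10.9).

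Eng encodes endoglin, a co-receptor on endothelial and early blood cells (chromosome 2, 32502115 to 32538189, plus strand). Its single peak (32517030 to 32517933) was in an intron, 15.5 kb downstream of the first TSS and 11.3 kb before an internal TSS. It had 116 fragments over a background of 6.29. Its window held 2 composites, each with a spacing of 8 bp, as printed above.

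Bambi encodes a pseudoreceptor that resembles a type I receptor and lacks the kinase (chromosome 18, 3507955 to 3516402, plus strand). It had 5 peaks, all intergenic and downstream, at 30.9, 35.7, 125.9, 158.3 and 260.7 kb from its TSS. Their folds in that order were 17.1 (13.9 to 20.9), 34.3 (28.9 to 40.4), 18.6 (14.4 to 23.8), 58.1 and 42.1 (37.2 to 47.6). Thus all 5 were above the median of the whole list, and the peaks at 158.3 and 260.7 kb were in its top 10%. The composite was present at the nearest and the farthest of the 5.

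The receptor-activated Smads Smad1 and Smad5 carry BMP signals to the nucleus. At Smad1 (chromosome 8, 81862294 to 81923417, minus strand), 6 of 7 peaks were in its own introns. The strongest (81904312 to 81904738) lay 18.9 kb from the TSS with 551 fragments, and a second (81899155 to 81900263) lay at 23.6 kb with a fold of 43.3 (39.1 to 47.9) from 383 fragments. The third, at 49.1 kb, had a fold of 26.5 (22.7 to 30.6). The other 3 intronic peaks had folds of 4.70 (3.49 to 6.20), 5.60 (4.10 to 7.47) and 8.86 (7.60 to 10.3), and the intergenic peak 91.4 kb upstream had 6.76 (4.81 to 9.25). The peak with a fold of 8.86 had 175 fragments over a background of 18.9, the highest of the 54. The backgrounds at Smad1 ranged from 4.62 to 18.9 and the median of all peaks on chromosome 8 was 5.24, against 3.67 over the genome. The part of this background in the folds was not tested. Every one of the 7 windows held an E-box, 3 held a GATA motif and 0 held the composite.

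Smad5 (chromosome 13, 56804371 to 56843738, plus strand) had 3 weaker peaks. An intronic peak 1.02 kb from the first TSS (56804920 to 56805633) had a fold of 11.6 from 53 fragments, and another at 7.63 kb had 5.12 (3.79 to 6.77). The third was 73.5 kb from the first TSS and 43.5 kb from the last, inside an intron of Trpc7, with a fold of 11.5 (8.32 to 15.6). The intervals of this peak and the first overlapped. The composite, with a spacing of 8 bp, was in the third, with its centre 1 bp from the summit.

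Smad6 and Smad7 encode the inhibitory Smads, which compete with the receptor-activated Smads at receptors and bring ubiquitin ligases to them. Smad6 (chromosome 9, 63800953 to 63869866, minus strand) had its strongest peak (63892833 to 63893753) 23.3 kb upstream. It was 1 of 5 upstream peaks within 15.1 kb, and the other 4 had folds of 26.3 (22.8 to 30.3), 5.87 (4.07 to 8.21), 5.10 (3.63 to 6.97) and 16.9 (13.8 to 20.5) in order away from the gene. Thus the strongest and the weakest of the 10 peaks lay in this stretch. All 5 were nearer to a TSS of the non-coding gene 1110036E04Rik, 0.887 to 10.6 kb away, than to one of Smad6. The 2 peaks in Smad6 introns were weak, at 7.84 (5.89 to 10.2) and 6.95 (4.76 to 9.82). Beyond the 3′ end, towards Smad3, there were 3 peaks with folds of 6.51 (4.75 to 8.71), 19.3 (15.3 to 24.0) and 35.8 (30.6 to 41.6). The last of these lay 121.6 kb from the nearest Smad6 TSS and 137.4 kb from that of Smad3. The composite was in that peak (7 bp) and in the strongest (9 bp), and 8 of the 10 held a GATA motif.

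Smad7 (chromosome 18, 75527183 to 75555589, plus strand) had no peak in its body. There were 9 peaks upstream, from 32.9 to 118.9 kb, and 3 downstream, from 87.9 to 135.5 kb from the first TSS. Of the upstream peaks, the farthest 2 lay in introns of Dym with folds of 12.8 (9.54 to 16.8) and 61.6 (55.9 to 67.9). The other 7 were intergenic and had, in order towards the gene, folds of 5.26, 8.67, 40.2, 6.06, 21.4, 34.5 and 6.30, of which 5 lay within 19.1 kb. The 3 downstream peaks lay in introns of Ctif with folds of 12.5 (9.16 to 16.6), 21.9 (17.5 to 26.9) and 70.7, the farthest having the highest fold of the 12 (75662420 to 75663015, 366 fragments). Its interval, 63.6 to 78.3, overlapped that of the Dym peak with a fold of 61.6, which had more fragments (416) and no composite. The composite was present at 7 of the 12 Smad7 peaks (58.3%), a larger number than at any other of the genes, and at 9 of the 42 peaks (21.4%) of the other members together. Its share over all peaks was 32.9%. Smad7 also had the most peaks of the genes, and all 12 lay nearer to a TSS of a non-coding gene than to one of Smad7. Weak and strong Smad7 peaks alike held the composite, from a fold of 6.06 to 70.7.

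Over all 54 peaks, 16 (29.6%, 19.1 to 42.8) held the composite within 50 bp of the summit, against 32.9% of all peaks. In windows 1 kb to each side the composite was found in 3.70% for these genes and 3.07% for the whole list. A GATA motif was present at 38 peaks (70.4%, 57.2 to 80.9), against 73.2% of all peaks, with 15.7% and 17.8% in the flanks. An E-box was present at 23 peaks (42.6%, 30.3 to 55.8), against 52.6%. For the 10 genes this was the share in their own flanks, 42.6%, whereas over all peaks the flanks held 42.4%. Thus the composite and GATA shares at these genes were near those of the whole list, and the E-box share at the summits was not above that of the flanks. With only the 17 peaks in a gene or within 10 kb of it, the composite share was 11.8%. CAGCTG was at 4 peaks (7.41%, 2.92 to 17.6), against 14.1%. The Smad box CAGAC, bound by Smad3 and Smad4, was at 21 peaks (38.9%, 27.0 to 52.2), against 29.1% of all peaks and 20.4% in the flanks of the 54, and the interval included the share of the list. The GC-rich element GGCGCC, which BMP-activated Smads can bind, was at 3 peaks (5.56%, 1.91 to 15.1), against 1.30% of all peaks and 0.926% in the flanks of the 54. These 3 were a peak each of Tgfbr2, Smad6 and Smad7, with folds of 7.93, 6.95 and 8.67. The Ets core GGAAG was at 42.6% against 45.1%, with 39.8% in the flanks of the 54 and 29.3% in those of all peaks. The Runx core TGTGGT was at 7.41%, against 9.56% of all peaks and 8.33% in the flanks of the 54. All of these were searched on both strands, and CAGCTG is also counted as an E-box. A match is a run of letters and does not show that a protein bound it.

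**Figure D4:**
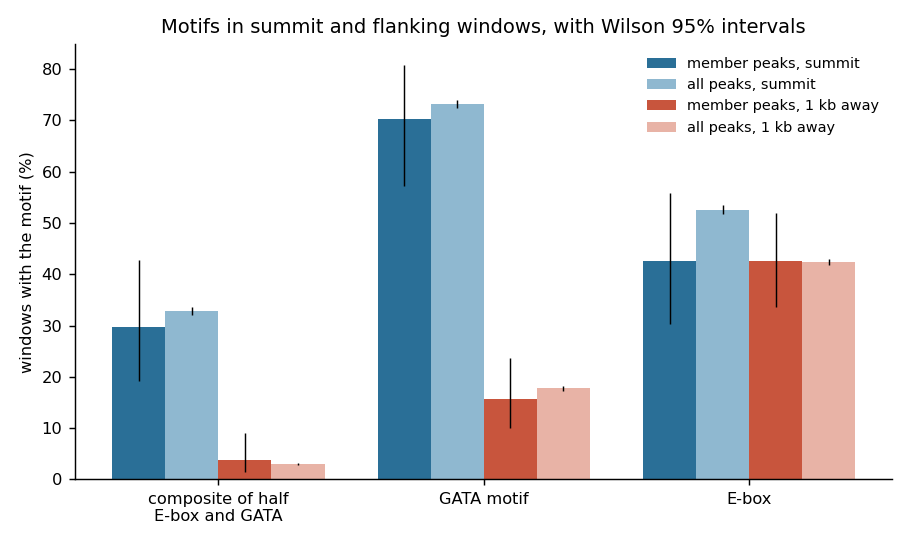
Percentage of 101 bp windows that hold the composite, a GATA motif or an E-box, at the summits of the 54 peaks and of all 12885 peaks and 1 kb to each side of them, with Wilson 95% intervals as error bars. The composite and the GATA motif are at 29.6% and 70.4% of the 54 summits and at 3.70% and 15.7% of their flanks, whereas the E-box is at 42.6% of both.

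A spacing of 8 bp was found at 8 of the 54 peaks (14.8%), 9 bp at 6 (11.1%) and 7 bp at 3 (5.56%), against 12.3%, 18.3% and 3.60% of all peaks. One Smad7 peak held both 7 and 9 bp. The median fold was 19.3 with and 13.7 without the composite, against 13.3 and 10.3 over all peaks. With a GATA motif it was 16.5 and without it 8.80, against 12.1 and 9.17. With an E-box it was 14.6 and without it 14.1 in the 54 peaks. Among peaks with a fold under 10, 3 of 19 (15.8%) held the composite, and among the others 13 of 35 (37.1%) did, beside 25.8% and 38.3% of the peaks of the whole list split in the same way. At the strongest peaks of the 10 genes the composite occurred in 5 and the GATA motif in 9. No share was computed for the strongest peaks of other genes. Over the whole list both motifs went with a higher median fold, and so these counts are not read as a trait of the 10 genes. Neither GATA motif nor E-box was found at 9 of the 54 (16.7%), against 12.1% of all peaks.

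Of 48 other genes of the pathways, 29 had at least 1 peak, where 29% of all protein-coding genes did. They held 78 peaks in all, with a median fold of 9.53 (8.15 to 15.2), against 11.1 over all peaks. Ligand genes had peaks in 10 of 13 cases, receptor genes in 5 of 9 and signal transducers in 2 of 4. Extracellular antagonists had them in 5 of 10, intracellular inhibitors in 3 of 5 and targets in 4 of 7. The ligand gene Bmp2 had 10 peaks and a strongest fold of 147.2. Bmper, which encodes a secreted BMP-binding protein, had 8 peaks (strongest 60.3), and Tgfbr3, which encodes the co-receptor betaglycan, had 6 (64.7). There were 5 peaks each at Tgif1, a repressor of TGF-beta-induced transcription (82.1), at the homeobox target Msx1 (71.1), and at Id3 (48.6) and Id2 (12.5), which encode helix-loop-helix proteins without a DNA-binding region that sequester E proteins. The pathway genes with 0 peaks included Id1, Smad4, the partner of all receptor-activated Smads, Smad9, and the BMP antagonist genes Chrd, Grem1 and Fst.

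In the study's lists of bound genes that changed without SCL, Acvrl1, Smad6 and Smad7 stand among the activated genes and Smad1 among the repressed, and the other members in neither list. Those lists were drawn up with these same ChIP libraries and are no independent evidence on binding.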

How the data were processed

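SCL ChIP-seq of 2 ChIP and 2 input libraries was deposited as a single peak list. Per the study's methods and the submitters' processing notes, the authors aligned paired-end reads to mm9 with Bowtie 1.1.2 and called peaks with MACS2 2.0.10 on merged ChIP against merged input, keeping the final list by the irreproducible discovery rate. The deposited fold of each peak is a ratio at the summit, of ChIP fragments plus 1 to local background plus 1, as MACS2 computes it. The deposited −log10 p is a MACS2 value, and the deposited score and −log10 q were not used. Sequencing depth per library is not given in the sources used here. The authors' fold and −log10 p were solved together for the whole number of fragments at the summit and the background, which matched the −log10 p to within 0.001 in all 54 peaks and in 99.9% of all peaks. Depth behind a peak is this fragment number. Its exact Poisson 95% interval was carried to the fold with the background taken as known.

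Summits were matched to the TSSs of every transcript of protein-coding genes, non-coding transcripts included, in GENCODE vM1 on NCBIM37, the mm9 build. With protein-coding transcripts only, the share of the 54 peaks within 1 kb of a TSS was 3.70%. All 12885 peaks lay inside chromosomes of the same name. Positions count from 1. Sequences were read from that genome with pyfaidx 0.9.0.4, and statistics used Python 3.11.15, NumPy 2.4.6, pandas 2.3.3 and SciPy 1.17.1. Each gene's assigned sequence includes assembly gaps. Groups came from the sample labels. The scripts were tested on simulated data. The 10 genes, the other pathway genes and the motifs were chosen with earlier results of these data known, and so no test was run on them and counts are set beside those of all peaks or genes. Named are all 10 genes, each one's strongest peak, peaks in the top 10% by fold and, of the other pathway genes, at most 12 with 5 or more peaks or with a peak in the top 5%. Genes with 0 peaks were named after their values were seen. Of the alternatives, the TSS set, fold and distance thresholds, merging, motif window and spacing were varied.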

Additional observations from a re-analysis of the deposited data

How the results depend on the processing

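Of 37 alternative values, 27 stayed within the 95% interval of the reported share or median or within 1.5 times the reported count, and 10 did not. These are values with no test, and the whole list was not recomputed beside each. Adding the TSSs of lincRNA and processed-transcript genes left 34 of the 54 peaks at the genes, because all 12 Smad7 peaks, all 3 Bmp4 peaks and 5 of the 10 Smad6 peaks then lay nearest to a non-coding gene, which left 8 genes with a peak. A fold of at least 10 left 35 peaks, with a median fold of 21.9, at all 10 genes, and 18 of the other pathway genes. Keeping only peaks in the gene or within 10 kb of it left 17 peaks at 7 genes, with Bmp4, Bambi and Smad7 at 0, and 11.8% with the composite. Over the whole peak the composite was found in 50% of the 54, the GATA motif in 92.6% and the E-box in 92.6%, since the window is longer. With the window widened to 100 bp either way, the E-box was in 72.2%. By −log10 p or by fragments, 9 of the 10 genes kept the same strongest peak, and at Smad7 it was the peak with 416 fragments in an intron of Dym. No paired analysis was possible because peaks were called on pooled replicates, and for that reason leaving out each replicate could not be done. Weak peaks, such as that of Tgfbr2 with 29 fragments, had the widest intervals relative to their fold.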
